A study of Drosophila melanogaster with 70 samples.

Results

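Genome folding in blastoderm embryos of Drosophila melanogaster was compared after maternal RNAi against mof and after a control RNAi, domain by domain. A domain here is the stretch between the midpoints of neighbouring boundaries on a chromosome arm, so the 2499 boundaries of the mof RNAi list give 2494 domains and the 2591 of the control list give 2586. Together these are 5080 of the 7860 domains in the series' 3 boundary lists. The remaining 2780 come from stage 15 embryos and serve only as a side reading.

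The mof RNAi list comes from 2 Hi-C libraries of embryos whose mothers carried the mat-a-Gal4 driver and an RNAi line against mof (Bloomington stock 58281). The control list comes from 3 libraries of embryos whose mothers carried the driver and a control RNAi line (stock 36304). In both groups these females were mated to their siblings, and 50 to 100 embryos per library were staged by hand to the middle of nuclear cycle 14 (stage 5), a time of pure S phase per the labels' protocols. The embryos were not sexed, so each library mixes males and females. The Gal4 line acts in the mother's germline: what is targeted is the maternal supply, and how much mof product remained was not analysed here. For the mof RNAi libraries the titles were followed, since their strain label speaks of control mothers while listing stock 58281. The driver stock is 7063 in the strain labels and 7062 in the treatment protocol.

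MOF is an acetyltransferase that places an acetyl group on lysine 16 of histone H4. It works in the MSL complex, which with the roX RNAs raises transcription of the male X chromosome, and in the NSL complex, which binds promoters of housekeeping genes on all chromosomes. In Drosophila, Hi-C maps divide the genome into topologically associating domains within which DNA contacts are more frequent. Their boundaries lie mostly at active gene ends and at binding sites of insulator proteins such as BEAF-32, CP190 and Chromator, and they appear at about the time of zygotic genome activation.

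Each condition is represented by 1 list, taken to pool its libraries. There is therefore no spread between replicates, no test and no p-value in what follows. How far 2 lists from the same condition would differ was not measured, and the lists give no read counts, so the depth of either map is unknown. The number of pooled libraries and the RNAi cannot be told apart. Ranges in brackets are 95% Wilson intervals, which treat domains, boundaries or genes as independent and cover counting error only.

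Boundaries were paired one to one, in order, when their midpoints lay within 2.5 kb, the bin size of the maps. There were 2039 shared boundaries. Of these, 1806 had the same midpoint in both lists, 223 were 1 bin apart and 10 differed by less than a bin. The mof RNAi list held 460 boundaries with no partner, called gained here, and the control list held 552, called lost. Most stood well clear of the tolerance. The nearest boundary of the other list was over 10 kb away for 353 gained and 444 lost boundaries, and the median distances were 20 kb and 23.4 kb.

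The shared boundaries cut the arms into 2034 blocks whose ends match within a bin in both lists, and each block was given a state. Of these blocks, 1509 were kept, with 1 domain in each list. Another 197 were merged, holding 1 mof RNAi domain where control had 2 or more. A further 139 were split, holding 2 or more mof RNAi domains where control had 1. The last 189 were moved, with at least 1 gained and 1 lost boundary between the same ends.

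Counted as domains, 60.7% of the 2484 mof RNAi domains in blocks were kept (58.8% to 62.7%), and 58.6% of the 2575 control domains (56.7% to 60.5%). The remaining 41.4% of control domains lay in changed blocks: 16.5% in merged ones, 5.40% in split ones and 19.5% in moved ones. Of the mof RNAi domains, 7.93% were products of a merge, 12.4% were parts of a split and 18.96% lay in moved blocks. Measured in DNA rather than in domains, kept blocks covered 63.9 Mb, 49.5% of the length of all blocks, and changed blocks 65.1 Mb, 50.5%. Domains that kept their ends were thus the majority by number, while kept and changed DNA were near equal in length. Of the 1509 kept domains, 1209 (80.1%) had both midpoints unchanged and 300 had an end shifted by up to a bin.

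Merges outnumbered splits, 197 to 139. Among merges, 175 joined 2 control domains, 14 joined 3, 7 joined 4 and 1 joined 5. Among splits, 114 gave 2 mof RNAi domains, 22 gave 3, 2 gave 4 and 1 gave 5. The mof RNAi list is also the shorter one. When the control list was cut to as many boundaries as the mof RNAi list, by taking the most negative scores, there were 177 merges and 151 splits. Merges thus still outnumbered splits, by a smaller margin. Cutting only the control list removes lost boundaries or turns shared ones into gained ones, so fewer merges and more splits are partly built in. What list length alone would give was not tested.

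**Figure D1:**
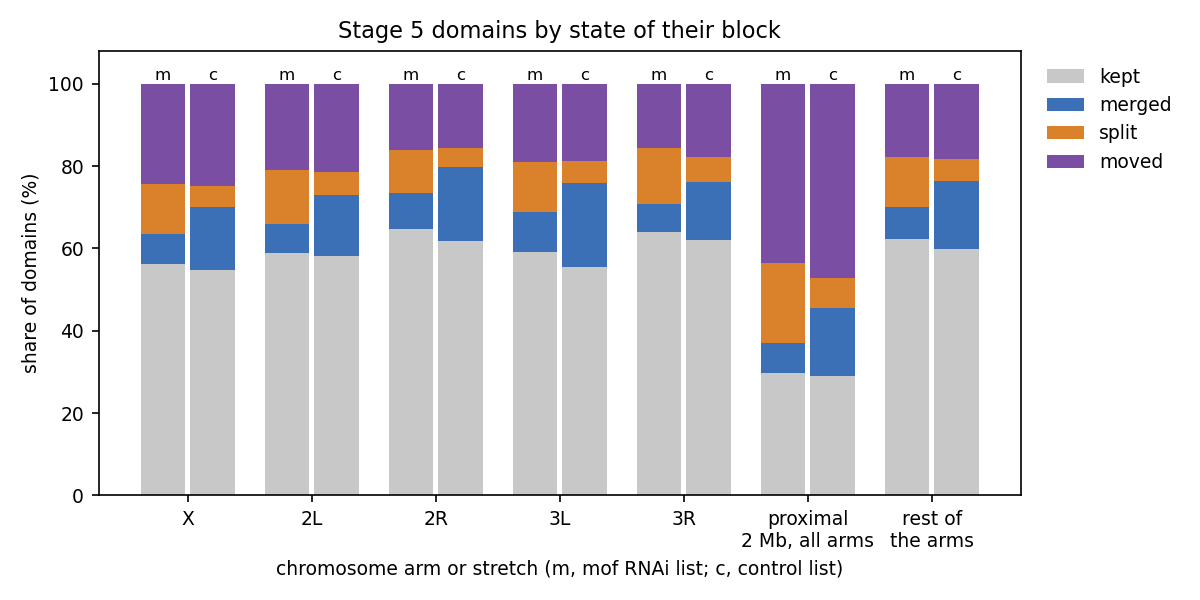
Share of domains (%, y axis) in kept, merged, split and moved blocks, for each arm, for the 2 Mb of each arm nearest the centromere and for the rest of the arms (x axis). The 2 Mb is counted from the shared boundary closest to the centromere. Left bar of each pair, mof RNAi domains; right bar, control domains. Kept domains are 54.8% to 62.0% of the control domains of each arm and 29.1% of those near the centromeres.

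The X chromosome, where MOF acts in males, kept 252 of 449 mof RNAi domains (56.1%) and 252 of 460 control domains (54.8%, 50.2% to 59.3%). The autosomes kept 1257 of 2035 mof RNAi domains (61.8%) and 1257 of 2115 control domains (59.4%, 57.3% to 61.5%). X minus autosomes, the share of control domains kept differed by -4.65 percentage points, with an interval that includes 0 (-9.67 to 0.31). Among the autosomal arms 3L kept 55.6% of control domains, close to the X, while 2L kept 58.1%, 2R 61.8% and 3R 62.0%. The X stood furthest from the autosomes in moved blocks, which held 24.3% of its mof RNAi domains and 24.8% of its control domains (21.1% to 28.9%), against 17.8% and 18.3% (16.8% to 20.1%) on the autosomes. All domains of a block share its state, however. Counted as blocks, 12.0% of 351 were moved on the X (8.98% to 15.8%) and 8.73% of 1683 on the autosomes (7.48% to 10.2%), and these intervals overlap. On 2L, moved blocks held 21.4% of control domains (17.8% to 25.4%), close to the X. Merged blocks held 15.2% of X control domains and 16.8% of autosomal ones, and split blocks 5.22% and 5.44%. The embryos were not sexed, so the X of males and of females cannot be told apart here.

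A larger contrast lay along the arms than between them. The 2 Mb nearest the centromere was counted from the shared boundary closest to it, not from the end of the assembled arm. Blocks were assigned by their midpoint. In these stretches 70.9% of 110 control domains lay in changed blocks (61.8% to 78.6%), against 40.1% of 2465 in the rest of the arms (38.2% to 42.0%). By length, changed blocks made up 81.4% of these proximal stretches and 47.9% of the rest. Of the proximal control domains 47.3% were in moved blocks. These stretches are rich in repeats, and many bins there were left out of the maps, as described below. The rest of the arms still held blocks of that kind. In 1 such block, on 3L at 25565626 to 25763750, 32 bins were left out of the mof RNAi map and 33 of the control map.

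Domain length set the states apart in ways that partly follow from their definition. Kept domains had a median length of 35 kb in both lists, with quartiles of 22.5 and 52.5 kb. The mof RNAi domain of a merged block had a median of 77.5 kb (quartiles 57.5 and 112.5 kb), and the control domains it replaced a median of 35 kb, the same as kept ones. The mof RNAi parts of a split domain had a median of 37.5 kb, and the control domain that was split 92.5 kb. In moved blocks the mof RNAi domains had a median of 52.5 kb and the control domains 51.25 kb. So merges joined control domains of ordinary size, whereas splits fell in control domains that were already long.

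In the 175 merges of 2 domains, the pair was usually unequal. The mof RNAi domain had a median length of 75 kb, the shorter control part 25 kb and the longer one 47.5 kb. In 70 of them (40%) the shorter part was at most 20 kb long, a length reached by 17.0% of control domains as a whole. Splits into 2 mirrored this: the shorter mof RNAi part had a median of 25 kb, the longer 53.0 kb and the undivided control domain 81.9 kb. In 39 of 114 (34.2%) the shorter mof RNAi part was at most 20 kb, against 16.0% of all mof RNAi domains. The shorter of a pair is shorter than a domain at large by construction, and these shares are given as a description.

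**Figure D2:**
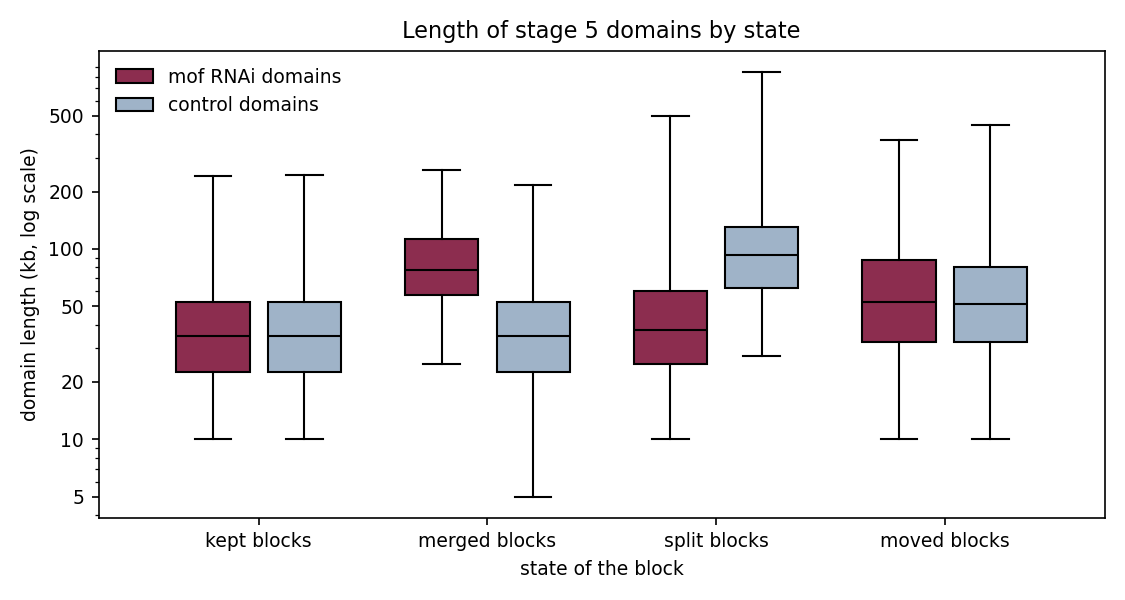
Domain length (kb, log scale, y axis) by state of the block (x axis), with mof RNAi domains on the left and control domains on the right of each pair. Boxes span the quartiles with the median as a line, and whiskers reach the shortest and longest domain. Kept domains have a median of 35 kb in both lists; merged blocks have medians of 77.5 kb and 35 kb, split blocks 37.5 kb and 92.5 kb.

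The longer a control domain was, the less often it was kept. Of control domains up to 20 kb long, 67.2% were kept after mof RNAi, 22.6% merged, 10.3% in moved blocks and 0 of 439 split, for which the interval reaches 0.867%. Between 20 and 40 kb 66.4% were kept, and between 40 and 60 kb 58.2%. From 60 to 100 kb the share kept was 48.2%. Of the 219 control domains over 100 kb, 30.6% were kept (24.9% to 37.0%), 27.4% split and 33.8% in moved blocks, but only 8.22% merged. A longer domain also offers more bins in which a boundary can be gained, and what that alone would give was not tested.

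**Figure D3:**
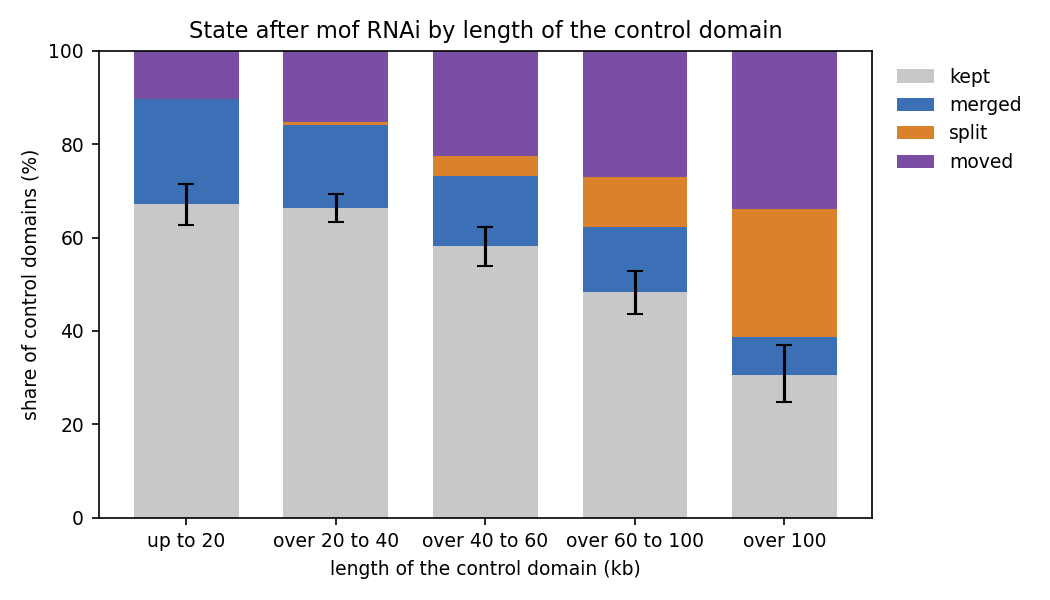
Share of control domains (%, y axis) that were kept, merged, split or moved after mof RNAi, by length of the control domain (kb, x axis). Error bars are 95% Wilson intervals of the kept share, which is 67.2% up to 20 kb and 30.6% over 100 kb.

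Bins missing from the maps moved with these states. The numbers in the boundary names run over bins, and where they skip, bins were taken as left out of the map. Such bins occurred in 27.5% of kept blocks, 51.8% of merged, 59.0% of split and 76.2% of moved blocks. A longer block has more bins that can be left out. As a share of bins, in the mof RNAi map, they were 4.83% in kept, 8.40% in merged, 15.8% in split and 13.7% in moved blocks. Of control domains in blocks without left-out bins 75.4% were kept (73.2% to 77.6%), against 36.9% in blocks with them (34.1% to 39.7%). Counted for each control domain by itself, the shares were 65.8% without and 45.3% with left-out bins. Within domains free of them the fall with length remained: 68.7% of 418 were kept up to 20 kb, 69.1% of 745 from 20 to 40 kb, 61.8% of 304 from 40 to 60 kb, 56.0% of 184 from 60 to 100 kb and 36% of 25 over 100 kb (20.2% to 55.5%). The numbers of left-out bins were close in the lists, 4550 for mof RNAi and 4523 for control in all blocks. Their part in the changed calls was otherwise not tested.

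The merges with the most control domains are described here in turn. They are the extreme of their kind, since 175 of 197 merges joined only 2 domains, and their lost boundaries need not be typical. On 2R, from 13591251 to 13826250, 1 mof RNAi domain of 232.5 kb with 16 protein-coding genes stood where control had 5 domains. Of its lost boundaries 1 lay at an end of CG6220, 1 at an end of CG6280, 1 inside tei and 1 nearest to tei. The cuticle protein genes Cpr50Ca and Cpr50Cb lie in the same block. Coordinates are those of the dm6 assembly, counted from 1.

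On 3R, 10893751 to 11126250, 4 control domains became 1 of about 228 kb that holds only 4 genes. All of its lost boundaries were at or inside side-VI, which encodes an immunoglobulin-type cell surface protein of the Sidestep family. A second merge of 4 on 3R, 22133751 to 22356250, lost 2 boundaries inside SKIP, named for a channel-interacting protein, and 1 at an end of Gld2, a poly(A) polymerase gene. In these 3 blocks the lost boundaries had score percentiles from 63.1 to 97.9 in the control list, where a low percentile means a more negative score.

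The other merges of 4 lay on 3L and 2R. One, on 3L at 25565626 to 25763750, lost boundaries inside or next to lovit, a histamine transporter gene of photoreceptor synapses, and 32 of its bins were left out of the mof RNAi map and 33 of the control map. Another, on 2R at 461251 to 633750, lost 3 inside DIP-lambda, which encodes a neuronal cell surface protein that pairs with Dpr proteins. It lies within the 2 Mb nearest the centromere, with 17 bins left out of the mof RNAi map and 16 of the control map. On 3L, 19138751 to 19296250 with no left-out bin in either map, 2 boundaries were lost inside fz2, a Wnt receptor gene, and 1 at the clustered ends of nes, Bet1, Max, CG42374 and Mettl5. Max encodes the binding partner of Myc and Bet1 a vesicle SNARE.

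The 3L block at 21908751 to 22066250 lost a boundary in mub, an RNA-binding protein gene, 1 at PolH (DNA polymerase eta) and CG14562, and 1 at CG7458. The last of the merges of 4, 3L 6123751 to 6266250, was the most gene-dense, with 41 protein-coding genes in 140 kb. It lost boundaries inside fmt, at the shared ends of D19A, CG7386 and Sf3b6 (a splicing factor gene), and at LanA, the laminin alpha chain gene. The boundary at D19A had a percentile of 35.7 in the control list, the lowest among the lost boundaries of these 8 blocks.

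Among splits, the one with the most parts was again on 2R, 13196251 to 13431250. Control had a single domain of about 232 kb with 40 genes, and the mof RNAi list held 5. Gained boundaries lay at the ends of Qsox1 (a sulfhydryl oxidase gene), CG4676 and CG4679, near CG17047, near CG10814, and at BaraA1, CG30059 and the flippase gene ATP8A. The first of these had a percentile of 9.48 in the mof RNAi list and was therefore among its most negative scores. The others were at 93.5, 93.8 and 56.8.

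The splits into 4 lay near centromeres. On the X, 21588751 to 22443750, the longest control domain (850 kb) was divided into 4, with 278 left-out bins in the mof RNAi map and 282 in the control map. On 3R, 1457501 to 1971250, all gained boundaries lay inside Myo81F, a myosin gene that spans much of the pericentromeric DNA there, and 107 bins were left out of each map. Both therefore rest on sparse maps. A split into 3 on 2L, 23068751 to 23316250, lay near CG12567 in a stretch of the same kind, with 58 and 60 bins left out.

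Further splits into 3 lay outside the 2 Mb nearest the centromere. On 2L, 8541251 to 8741250, boundaries were gained inside Sema1a, a transmembrane semaphorin that guides axons, and at the ends of CG9289, PrBP, Trs23 and the nuclear receptor gene Hnf4. On 2R, 5426251 to 5653750, they were gained inside CG30440 and inside Ugt50B3, a glycosyltransferase gene. In each map 16 bins of this block were left out. On 3R, 28138751 to 28350625, they lay inside CG34354 and near CG34437. On 3R, 14903751 to 15096250, they lay 12.3 kb from CG14861 and inside dpr9, a gene of the Dpr family whose products bind DIP proteins. These blocks on 2L and 3R had 5 to 8 left-out bins per map.

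Of the 189 moved blocks, 90 had exactly 1 gained and 1 lost boundary, 51 lost more than they gained and 32 gained more than they lost. In the 90, the gained boundary lay a median of 10 kb from the lost one (quartiles 5 and 27.5 kb). In 26 the distance was at most 5 kb, in 24 over 5 and up to 10 kb, in 14 over 10 and up to 20 kb, and in 26 over 20 kb. Moves were thus mostly short, and those up to 10 kb, 50 of 90, lie near the resolution of maps binned at 2.5 kb. In 33 of the 90 both positions were at gene ends. In 21 the lost boundary was at a gene end and the gained one was not, and in 15 it was the other way round.

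Whether a lost and a gained boundary that lie far apart in a block are related was not tested. The greatest move, 275 kb on 3L at 27363751 to 27673750, holds no protein-coding gene midpoint, and 92 bins were left out of each map. On the X, 6851251 to 7016250, a boundary was gained at Inx2, a gap junction gene, and lost 122.5 kb away inside CG43736. On 2L, 1156251 to 1321250, the gained boundary was nearest to robo3, a Slit receptor gene, and the lost one, 120 kb away, was at CG5126, Tgt and CG5001. Also on 2L, 12171251 to 12426250, a boundary was gained inside bru1, the gene of the translational repressor Bruno, and one was lost near CG31862. The gained position minus the lost one was -108.75 kb, towards lower coordinates.

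On 3R, 15436251 to 15651250, the boundary at B9d1, the rhodopsin gene Rh6, Trissin and obe was lost and one nearest to AOX4 was gained 95 kb further on. On 3R, 18411251 to 18573750, a boundary inside fru, the sex determination gene, was lost and one near CG7691 gained 82.5 kb away. On 2R, 15886251 to 16016250, the boundary lost at Diap2, bug and Mlf had a percentile of 8.03 in the control list, among its most negative, and the gained one, 67.5 kb away at ATPCL and Tmem131, had 52.5 in the mof RNAi list. On the X, 12461251 to 12583750, the boundary was gained at Cpr11B and lost 65 kb away at Cpr11A and Lsp1alpha, genes of cuticle proteins and of a larval serum protein.

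Gained and lost boundaries differed from shared ones in where they lay. A gene end was within 2.5 kb of 42.6% of the 460 gained boundaries (38.2% to 47.2%), and of 80.7% of shared boundaries at their mof RNAi positions (78.9% to 82.3%). Of the 552 lost boundaries 56.3% had one (52.2% to 60.4%), against 81.4% of shared boundaries at their control positions (79.7% to 83.0%). Gained boundaries lay inside a gene body, away from its ends, in 35.4% of cases and between genes in 22.0%; lost ones did so in 27.4% and 16.3%. For shared boundaries at their control positions the shares were 12.7% and 5.89%. Boundaries lost in merges had a gene end in 63.2% of cases (56.7% to 69.2%), and those lost in moved blocks in 52.4% (46.9% to 57.9%).

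Gained and lost boundaries also differed from their flanks in score. The score is the authors' own, on an unstated scale, and is read here by rank within its list. Gained boundaries of splits into 2 had a median percentile of 80.6 in the mof RNAi list, against 52.9 for the boundaries that flank them, and 73 of 114 (64.0%) scored above both flanks. Boundaries lost in merges of 2 had a median percentile of 69.7 in the control list, against 42.2 for their flanks, and 104 of 175 (59.4%) scored above both. Among shared boundaries set beside their neighbours, 24.9% in the mof RNAi list and 25.6% in the control list did so. In these simple splits and merges, the boundary found in 1 list alone thus mostly had a less negative score than its flanks. The shared ends of merged blocks ranked like those of kept blocks, with median percentiles of 42.3 and 42.5 in the mof RNAi list, while the ends of split (52.2) and moved (51.2) blocks ranked less negative.

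**Figure D4:**
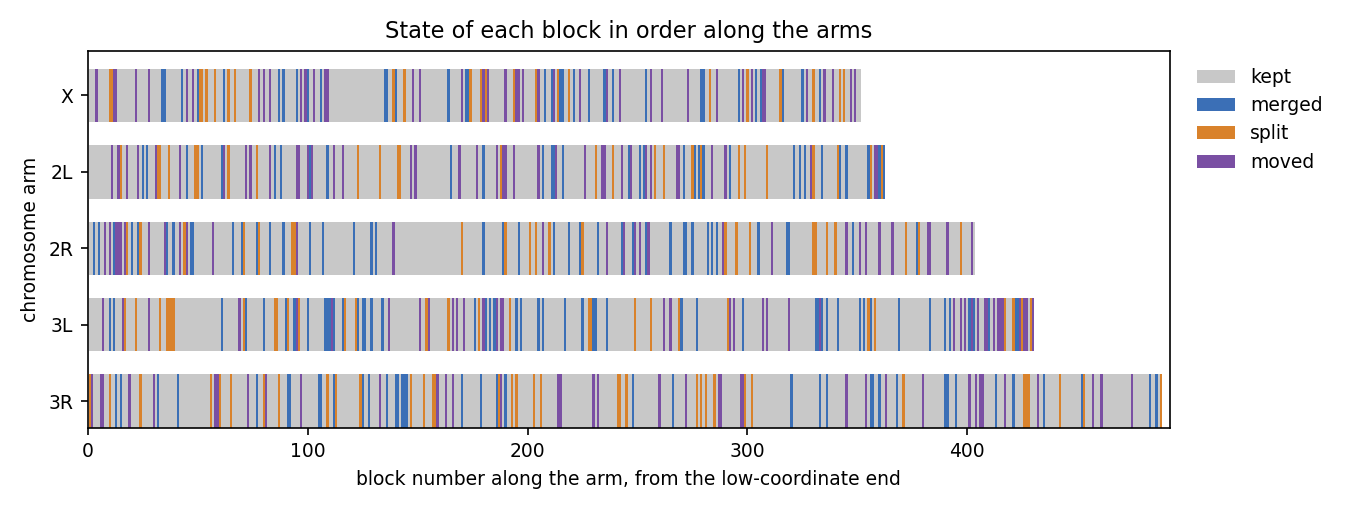
State of each of the 2034 blocks (colour) in order along the 5 arms (rows), numbered from the low-coordinate end of the arm (x axis); block number is not distance. Changed blocks occur on every arm, mostly as runs of a single block, and the longest run of kept blocks is 30, on 2R.

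Changed blocks were spread along the arms more than gathered. They formed 379 runs, of which 278 (73.4%) were a single block, 71 were 2 blocks and 30 were 3 or more. Kept blocks formed 380 runs with a median of 3 blocks, and 25 runs of 10 or more held 342 of them. After a changed block the next was changed in 146 of 522 cases (28.0%, 24.3% to 31.97%), and after a kept block in 378 of 1507 (25.1%, 23.0% to 27.3%). These intervals overlap, and in blocks without left-out bins the order was reversed, 11.5% after a changed and 13.9% after a kept block. The gap was widest on 3L, 36.1% (28.1% to 45.1%) after a changed block and 24.8% (20.4% to 29.9%) after a kept one, and on the X it ran the other way, 26.3% and 29.1%.

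Runs are ranked here by their number of blocks, not by length. The longest run of changed blocks was on 3L, 7 blocks from 25341251 to 27173750, or 1830 kb. It holds 16 mof RNAi and 18 control domains and only 8 protein-coding genes, from lovit to vtd, the gene of the Rad21 cohesin subunit. Of its bins 356 were left out of the mof RNAi map and 354 of the control map. The longest runs of 2L (5 blocks, 786 kb, CG40006 to Tim23) and 2R (4 blocks, 1124 kb, Maf1 to MFS17) lay likewise at the centromeric side of their arms. The run on 2R has 9 mof RNAi domains where control has 16.

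On the X and on 3R the changed run with the most blocks lay outside the 2 Mb nearest the centromere and had few left-out bins. On the X, 4 blocks from 793751 to 1236250 hold 48 genes from Rbf, the retinoblastoma family gene, to CG3638, with 11 mof RNAi and 8 control domains and 9 left-out bins in each map. On 3R, 3 blocks from 20056251 to 20576250 hold 34 genes, among them the chemoreceptor genes Gr92a, Ir92a and Or92a and the deacetylase gene Sirt2. They have 8 mof RNAi and 6 control domains, with 14 and 13 left-out bins.

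The longest run of kept blocks was on 2R, 30 in a row from 10808751 to 12203750, 1392.5 kb with 204 genes. Kept ends may still shift by up to a bin. This run contains the segment polarity genes en and inv, the FGF genes pyr and ths, and the Cpr47E cluster of cuticle genes. The domain of pyr and ths was 82.5 kb after mof RNAi and 80 kb in control. The X had the second longest, 25 blocks over 1237.5 kb (7518751 to 8758750) with 138 genes, among them the head gap gene oc, the bromodomain gene fs(1)h, the chorion genes Cp36 and Cp38, RpS6 and a row of Ir7 receptor genes. On 3L 21 blocks were kept in a row over 972.5 kb with RpL8 and RpL28, on 3R 17 blocks over 712.5 kb from Cdk2 to lbe with mod(mdg4), and on 2L 15 blocks over 720 kb with gcm, the glial determination gene. Each of these runs had 8 to 18 left-out bins per map.

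Of the 13785 protein-coding genes with a midpoint in a block, 5550 (40.3%) lay in changed blocks: 13.8% in merged, 9.82% in split and 16.6% in moved ones. Changed blocks were poorer in genes. Per 100 kb, moved blocks held 7.20 protein-coding genes, split ones 8.76 and merged ones 10.7, against 12.9 in kept blocks. Genes longer than 20 kb made up 8.41% of the genes in changed blocks and 6.40% of those in kept blocks. The median gene length went the other way, 2.01 kb in changed blocks and 2.24 kb in kept ones.

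Most neighbouring genes were together or apart alike in both lists. Of 13837 neighbouring gene pairs, 439 (3.17%) shared a domain after mof RNAi only, and 359 (2.59%) shared one in control only. The state of 11119 pairs was together in both lists, and of 1920 apart in both. Put another way, 18.6% of the 2359 pairs that control parted were joined after mof RNAi, and 3.13% of the 11478 pairs that control held together were parted. On the X 22.4% of the parted pairs were joined, and on the autosomes 17.8%. The other direction was also more frequent on the X: 4.60% of the pairs together in control were parted there, and 2.86% on the autosomes.

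The gene lists from here on are set beside the shares of all placed protein-coding genes, called the background. These are 40.3% in changed blocks, 13.8% in merged, 9.82% in split and 16.6% in moved ones. All 10 Hox genes lay in kept blocks: lab, pb, Dfd, Scr, Antp, Ubx, abd-A and Abd-B, which set segment identity, and zen and zen2, which lie in the Antennapedia complex. Ubx had a domain of 62.5 kb in both lists, abd-A 35 kb and Abd-B 37.5 kb. Antp lay in a domain of 63.75 kb in both, but its long gene body reaches beyond it and holds both a gained and a lost boundary. Wilson's interval for 0 of 10 reaches 27.8%, and these genes occupy 8 blocks rather than 10 independent ones.

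Of 9 gap genes placed, 8 were kept, with domains of equal length in both lists for hb (40 kb), kni (77.5 kb), tll (20 kb), gt (23.75 kb) and hkb (50 kb). The exception was cad, a posterior patterning gene, in a moved block of 2 domains, where its domain was 40 kb after mof RNAi and 30 kb in control. Kr lies beyond the last shared boundary of 2R and was not placed.

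Of the pair-rule genes 6 of 10 were kept. The eve domain of 17.5 kb and the ftz domain of 65 kb had the same ends in both lists, and hry, odd and prd were also in kept domains of equal length. The neighbours slp1 and slp2 lay together in a moved block, in a domain of 57.2 kb after mof RNAi and 49.7 kb in control. Ten-m, long counted with the pair-rule genes, has a gained and a lost boundary inside its body. The domain of run, an X-linked gene that also counts the X in sex determination, was 62.5 kb after mof RNAi and 15 kb in control, merged with its neighbour.

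Of 11 segment polarity genes 8 were kept, among them en and inv, in 1 domain of 55 kb in both lists, hh (30 kb) and ptc (35 kb). The others lay in moved blocks. The Wnt gene wg had a domain of 102.5 kb after mof RNAi and 107.5 kb in control, and the Pax genes gsb and gsb-n, which share a domain, 72.5 kb and 65 kb.

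Of 21 dorsoventral genes, 15 were kept, including dpp, dl, twi, rho, ind, sog and the Doc1, Doc2 and Doc3 cluster. Those merged were sna, tup and sim. The mesoderm repressor gene sna had a domain of 60 kb after mof RNAi, shared with Tim17b2, and of 37.5 kb in control, where it was alone; the lost boundary, at 2L 15476251 to 15478750, overlaps sna itself. The domain of tup was 85 kb after mof RNAi and 35 kb in control, and that of the midline gene sim 50 kb and 27.5 kb. The moved ones, vnd, brk and tsg, are all on the X: brk, a repressor of Dpp targets, had a domain of 30 kb after mof RNAi and 40 kb in control.

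Early zygotic and cellularization genes had 9 of 20 in changed blocks, near the background. The pioneer factor gene zld had a domain of 102.5 kb after mof RNAi and 40 kb in control. The mitosis inhibitor gene Z600 had a domain of 12.5 kb after mof RNAi and 152.5 kb in control. The X counting gene sisA had 27.5 kb after mof RNAi and 117.5 kb in control, and the phosphatase gene stg, which times the mitoses of cycle 14, 70.3 kb and 207.5 kb. The cellularization genes slam, halo and nullo were in kept domains.

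The list of MSL complex genes, which also holds Clamp and the roX RNA genes, had 4 of 8 in changed blocks (50%, 21.5% to 78.5%). The background of 40.3% is of protein-coding genes and leaves out the roX genes. The mof gene, on the X at 5873840 to 5876853, lay in a merged domain of 115 kb with 18 genes after mof RNAi, and in one of 59.7 kb with 8 genes in control. The genes it newly shared a domain with include Cpr5C and Prosbeta2R1. The lost boundary was 53.5 kb from mof, and the boundary near its other side was the same in both lists. The helicase gene mle had a domain of 45 kb after mof RNAi and 12.5 kb in control.

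The scaffold gene msl-1 lay in a moved block of 4 mof RNAi and 3 control domains. Its domain was 45 kb after mof RNAi and 100 kb in control, each with 15 genes, of which those from msl-1 to Faf2 are common to both. The roX2 locus had a domain of 125 kb after mof RNAi and 52.5 kb in control, and the boundary gained there overlaps roX2, at X 11578751 to 11581250. By contrast roX1 had 50 kb in both lists, with both ends shifted by a bin, and msl-2 (17.5 kb) and Clamp (17.5 kb) had domains of equal length in both lists. For msl-3 the domain was 40 kb after mof RNAi and 42.5 kb in control.

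Of the NSL complex, listed here without mof, 5 of 7 genes were kept: nsl1, Rcd1, Rcd5, dgt1 and wds. Chro, whose product also sits at domain boundaries, had a merged domain of 197.5 kb after mof RNAi and 75 kb in control. MBD-R2 had 117 kb after mof RNAi and 27.5 kb in control. Of 15 acetyltransferase and deacetylase genes, a list that holds mof too, 10 were kept, among them Tip60, chm, HDAC1 and Gcn5. The CBP gene nej (22.5 kb after mof RNAi, 30 kb in control) and enok (17.5 kb and 27.5 kb) were in moved blocks with a gained boundary within 2 kb of the gene.

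Insulator and architectural protein genes had 10 of 21 in changed blocks (47.6%, 28.3% to 67.6%), against 40.3% of all placed genes. Of these su(Hw), which encodes the protein that binds the gypsy insulator, had a domain of 40 kb with 9 genes after mof RNAi and of 20 kb with 3 genes in control; the lost boundary overlapped su(Hw). Trl, the GAGA factor gene, lay in a split block, with a domain of 45 kb after mof RNAi and 85 kb in control, and Dref in a merged one, with 80 kb after mof RNAi and 50 kb in control. Of the ELBA group, insv and Elba2 shared a moved block, as did Elba1 and Elba3. BEAF-32, Cp190, CTCF, pita, M1BP and mod(mdg4) were in kept domains.

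Polycomb group genes were in changed blocks in 3 of 18 cases (5.84% to 39.2%): jing, moved; Asx, split; and Pcl, merged. Pc, E(z), Psc, esc and the pair ph-d and ph-p were kept. Of the Trithorax and Brahma genes 5 of 18 were in changed blocks (27.8%, against 40.3% of all placed genes). Of these brm and ash1 were merged, Trl and Bap111 split and polybromo moved. The domain of ash1 was 82.5 kb after mof RNAi and 12.5 kb in control.

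**Figure D5:**
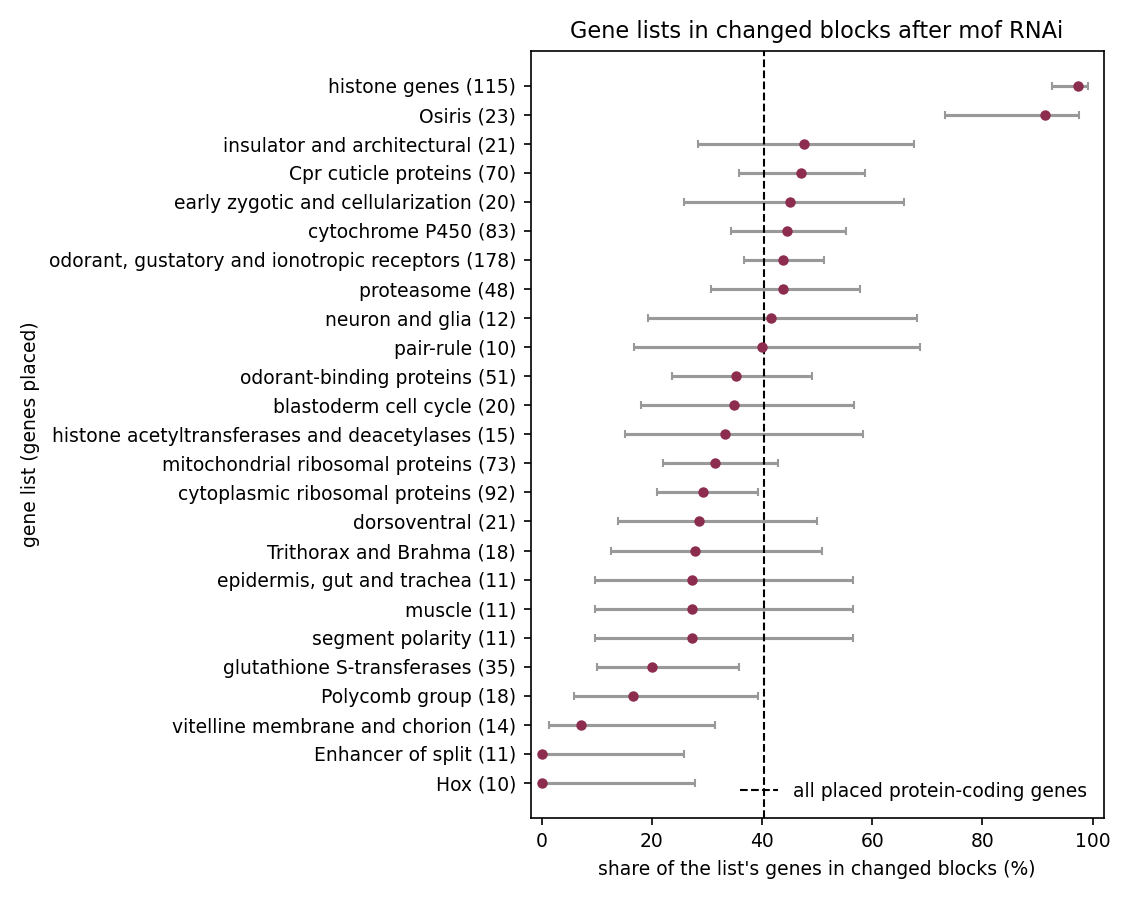
Share of each list's genes in changed blocks (%, x axis) for lists with 10 or more genes placed (y axis, number in brackets), with 95% Wilson intervals that treat genes as independent although clustered genes share blocks. The dashed line marks all placed protein-coding genes, 40.3%; Hox and Enhancer of split genes are at 0% and Osiris genes at 91.3%.

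Gene families that sit in clusters changed or stayed as whole blocks, so their counts of genes overstate the number of separate events. The 11 Enhancer of split genes, targets of Notch signalling on 3R, lay in 1 kept domain of 60 kb in both lists (0% to 25.9%). The 23 Osiris genes, which are needed for cuticle structure, gave the opposite: 21 lay in changed blocks, but in 5 blocks in all. The 3R Osiris cluster runs through 2 neighbouring blocks. In the moved one, control cut the cluster inside Osi4, and the mof RNAi list held a gained boundary between Osi4 and Osi5 and another between Osi6 and Osi7. Osi19 and Osi20, at the end of the cluster, lay in a domain of 15 kb after mof RNAi and in one of 95 kb in control.

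Of the histone genes 112 of 115 lay in split blocks, nearly all in 1 block of 180 kb on 2L. There the mof RNAi list added a boundary 10.8 kb from the nearest copy, His3:CG33866, and all 111 of the block's genes were left in a domain of 157.5 kb. In each map 54 bins of this block were left out, so it rests on sparse data. The copies are near-identical tandem repeats, whose reads cannot be told apart. The variant gene His3.3B, on the X, lay in a domain of 20 kb after mof RNAi and 77.5 kb in control, with the gained boundary at the gene.

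Cuticle protein genes of the Cpr family had 33 of 70 in changed blocks (47.1%, against 40.3% of all placed genes). Of these 27 lay in merged blocks, which held 13.8% of all placed genes, and clustered genes share blocks. The Cpr65A cluster on 3L lay in a domain of 140 kb after mof RNAi and 42.5 kb in control; for Cpr65Az the lost boundary was 5.91 kb away. Cpr67Fa1, Cpr67Fa2 and Cpr67Fb lay in a domain of 107.5 kb after mof RNAi and 12.5 kb in control. The Cpr47E and Cpr49A clusters on 2R, in contrast, were in kept domains of 42.5 kb and 92.5 kb. The Cpr genes occupy 32 blocks in all.

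Chemosensory receptor genes (Or, Gr and Ir) had 78 of 178 in changed blocks (43.8%), near the 40.3% of all placed genes. Of the 178, 42 lay in moved blocks, which held 16.6% of all placed genes. The carbon dioxide receptor gene Gr63a had a domain of 92.5 kb after mof RNAi and 57.5 kb in control, and Ir8a, a co-receptor gene, 55 kb and 10 kb. Gr98a, Gr98b, Gr98c and Gr98d shared a domain of 302.5 kb after mof RNAi and of 102.5 kb in control. Odorant-binding protein genes had 18 of 51 in changed blocks, with Obp50a to Obp50e together in 1 moved block. Cytochrome P450 genes had 37 of 83 (44.6%, against 40.3% of all placed genes). Among them was Cyp18a1, which inactivates ecdysone, with a domain of 195 kb after mof RNAi and 50 kb in control. Glutathione S-transferase genes had 7 of 35, and genes of the vitelline membrane and chorion 1 of 14, Vm32E.

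Housekeeping gene families had shares in changed blocks on either side of the background. Cytoplasmic ribosomal protein genes, which are scattered over 89 blocks, had 27 of 92 in changed blocks (29.3%, 21.02% to 39.3%), below the 40.3% of all genes; the difference was not tested. RpL10 had a domain of 60 kb after mof RNAi and 30 kb in control with the lost boundary at the gene, and RpL18 87.5 kb and 12.5 kb. RpL29 had 12.5 kb after mof RNAi and 42.5 kb in control. Mitochondrial ribosomal protein genes had 23 of 73 in changed blocks (31.5%), such as mRpL50, with 87.5 kb after mof RNAi and 12.5 kb in control. Proteasome genes had 21 of 48 (43.8%), 11 of them in merged blocks, which held 13.8% of all placed genes. Examples were Rpt5, with 35 kb after mof RNAi and 15 kb in control, and Prosalpha1, with 132.5 kb and 47.5 kb.

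Of the cell cycle genes of the blastoderm 13 of 20 were kept, including Cdk1, grp, twe and trbl. CycE (140 kb after mof RNAi, 107.5 kb in control), dup (72.5 kb and 35 kb) and CycD (57.5 kb and 42.5 kb) lay in merged domains. CycB had a lost boundary within 1 kb, and its domain was 57.5 kb after mof RNAi and 80 kb in control. Genes of tissues formed later were placed for comparison. Of neuronal and glial genes 5 of 12 lay in changed blocks (pros and repo merged, ChAT split, nSyb and elav moved). Of muscle genes 3 of 11 did (wupA, Msp300 and Mlc2), and of epidermis, gut and trachea genes 3 of 11 (vvl, Ddc and trh).

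The sex determination gene Sxl, on the X at 7074550 to 7098053, lay in a kept block. Its domain was 52.5 kb with nullo and CG4607 after mof RNAi, and 55 kb with these and CG12541 in control, where the left end lay a bin further out.

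The stage 15 list is named by libraries of males and females with and without mof RNAi, and which of them it pools is not stated. It was set beside the blocks as a list that played no part in forming them. Both ends of 792 of the 1509 kept blocks were boundaries at stage 15, and in 643 of these (81.2%, 78.3% to 83.8%) no stage 15 boundary lay between. For merges of 2 domains both ends were present in 86 of 175. Among those, no boundary lay between in 25, as in the mof RNAi list, and the lost boundary was present in 37 (43.0%, 33.1% to 53.6%). For splits into 2 both ends were present in 48 of 114, with none between in 16, as in control, and the gained boundary present in 13 (27.1%, 16.6% to 40.997%). The intervals of these shares overlap. Median lengths were 35 kb for all kept blocks, 75 kb for the mof RNAi domain of merges of 2 and 81.9 kb for the control domain of splits into 2. A longer block offers more bins for a stage 15 boundary, and what that alone would give was not tested.

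Where 1 boundary was lost and 1 gained, both ends of the block were present at stage 15 in 34 of 90 blocks. The gained boundary was there in 9 and the lost one in 15. With 34 blocks these counts are small, and their difference was not tested.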

How the data were processed

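In situ Hi-C (DpnII, paired reads of 75 bp per the labels' protocols) was read from lists of domain boundaries. Each list gives intervals on 2.5 kb bins. The assembly is dm6, per the submitters' processing notes. The score of each boundary is the authors' own deposited value. Caller, settings and score scale: not given in the sources used here. The lists were taken to pool the libraries of a group, and no read counts are in them, so depth is unknown. Scores were ranked within a list and never compared between lists.

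Boundaries were matched one to one within 2.5 kb, which gave the blocks and states. Boundaries outside the first and last shared boundary of an arm (10 of mof RNAi, 11 of control) were set aside. Genes came from the RefSeq table of Release 6, without strand, and were placed by their midpoint. A boundary counted as at a gene end if its midpoint was at most 2.5 kb from one. Python 3.11.15, pandas 2.3.3, NumPy 2.4.6, SciPy 1.17.1 and Matplotlib 3.10.9 were used. The matching was tested on simulated lists.

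Named are the 8 merged and 8 split blocks with the most domains, the 8 longest single moves, the longest run of each kind per arm, up to 6 members per list and class, those nearest to a changed boundary taken first, with a fixed set of 12 loci (mof, msl-1, roX1, roX2, Sxl, su(Hw), sna, eve, ftz, en, Ubx and Kr). Other members, kept ones included, were named after their values were seen. Members, lists and rules were chosen with earlier results of these data known. Planned promoter motif counts were not run, since no promoter sequences were used here. Genes of chromosome 4 and 3 listed names without a match were not analysed here.

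Alternatives were matching tolerances of 0, 5 and 10 kb, negative scores only, a control list cut to the length of the mof RNAi list, blocks without left-out bins, blocks outside the 2 Mb nearest each centromere, and other ways of counting genes.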

Additional observations from a re-analysis of the deposited data

How the results depend on the processing

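The share of control domains kept was 47.1%, 61.5% and 64.0% at tolerances of 0, 5 and 10 kb, 66.1% with negative scores only and 75.4% in blocks without left-out bins. Moved blocks numbered 339 at 0 kb, 114 at 10 kb, 99 with negative scores and 45 without left-out bins, where merged blocks numbered 95 and split blocks 57. Genes in changed blocks were 52.0%, 37.9% and 35.5% at 0, 5 and 10 kb, 36.4% with negative scores, 25.1% without left-out bins, 41.9% for genes whole inside a block and 41.1% for genes of every biotype. Neighbouring blocks shared a state in 57.7% of cases at 0 kb, 66.6% at 10 kb, 67.7% with negative scores and 74.9% without left-out bins, against 62.8%. In blocks without left-out bins the next block was changed in 11.5% of cases after a changed block and in 13.9% after a kept one, the reverse of the order over all blocks. Merged minus kept median length was 30 kb without left-out bins, against 42.5 kb. Some of these follow from the setting's construction, such as fewer blocks; otherwise the cause was not tested.

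Of 58 alternative values, 35 stayed within the interval of the reported share, difference or median, or within 1.5 times the reported count. X minus autosomes stayed below 0 in all 7 settings of lists and blocks. These settings recut the same lists, so the constant sign is no separate evidence, and the reported interval (-9.67 to 0.31) includes 0. No paired analysis was possible because each condition has 1 list pooled over its libraries; for the same reason no library could be left out. Without read counts, a lost boundary cannot be told apart from one missed at lower depth.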
